A study of Homo sapiens with 4 samples.

Results

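The genes described here are 9 structural genes of the actomyosin cytoskeleton and its anchorage at the cell membrane, namely the tropomyosins TPM1, TPM2, TPM3 and TPM4, the non-muscle myosin II heavy chains MYH9 and MYH10, the alpha-actinins ACTN1 and ACTN4, and FERMT2, which codes for kindlin-2. They were picked by symbol from the 18175 genes and loci of the expression table, and each symbol matched 1 row. The list was drawn up with the difference between siLINC01291 and siNC in these libraries already known, so that difference is given for the 9 genes as a description and without a test. Messenger RNA was sequenced from A375 and SK-MEL-28, both labelled as human melanoma cell lines, grown in the same serum-containing medium. In each line, 1 library came from cells given siLINC01291, an siRNA named for the long non-coding RNA LINC01291, and 1 from cells given siNC, by its name the control siRNA. The treatment text of all 4 libraries also lists EL without explaining it, and no source used here says whether EL reached these cells. Each of the 4 groups holds 1 library, so a difference between siRNAs in 1 line has no replicate check, and whether the libraries came from separate cultures is not stated.

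The libraries held between 29351240 and 31815336 counts. LINC01291 stood at 2.28 FPKM (fragment counts scaled by gene length and library size) with siLINC01291 and 6.39 FPKM with siNC in A375, and at 3.70 FPKM with siLINC01291 and 8.11 FPKM with siNC in SK-MEL-28, so its level followed the labels in both lines. The neural crest factor SOX10 lay between 80.1 and 147 FPKM in the 4 libraries. MLANA, a melanosome protein, had 321 and 286 FPKM in SK-MEL-28 but 0.774 and 0.830 FPKM in A375, and TYR and DCT likewise stayed under 0.5 FPKM in A375, so these pigment cell markers were near 0 there. The other markers of that list were not all so low in A375. With siLINC01291 and siNC, PMEL had 2.13 and 1.64 FPKM there, MITF 5.48 and 5.68, and S100B 5.69 and 3.47. PAX3 had 1.91 and 2.30 FPKM, and S100A1 0.641 and 0.735. Of 6 smooth muscle and 6 skeletal muscle marker genes, 0 had a row in the table analysed here, and ACTA2 and TAGLN, smooth muscle genes of the pathway lists, stayed under 1 FPKM in the 4 libraries. Of the keratinocyte list, 2 of 5 genes had a row, KRT10 at 17.97 to 27.7 FPKM and KRT14 at 7.32 and 6.16 FPKM in A375. Of the blood cell list, 1 of 4 had a row, LYZ at 1.94 FPKM or less. The part of these markers in the results was not tested.

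Non-muscle myosin II assembles into bipolar filaments that pull on actin filaments and so give the cell its contractile tension. Tropomyosins are coiled-coil dimers that lie along the actin filament and govern which myosins and other proteins can bind it. Alpha-actinins cross-link actin filaments into bundles, and kindlin-2 binds the tails of beta integrins and helps talin to activate them, which ties the bundles to the matrix at focal adhesions. In melanoma cells this machinery underlies adhesion, spreading and migration.

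Among the 9 genes, 3 differed by about 2-fold or more between siLINC01291 and siNC, TPM4 upward and MYH9 and FERMT2 downward, and these 3 also carry, in their 3' UTRs, short words that the other 6 lack. The words searched, CTATGAA with its overlapping neighbour TCTATGA on the one hand and TCGGAGA on the other, are taken from an earlier search of these same libraries that had ranked words by the log2 ratios of all genes, these included. Their presence is therefore a description and no independent evidence. In the sense strand of 1 principal transcript per gene (GENCODE 29, GRCh38), MYH9 and FERMT2 each hold CTATGAA and TCTATGA once, overlapping as 1 word of 8 bases, and TPM4 holds TCGGAGA once. The windows below show where these words lie. The 3' UTRs were not compared with those of the other genes in any other way. Each gives the word in capitals and 10 bases of the 3' UTR on either side, 5′ to 3′.
TPM4, plus strand, chr19:16101483-16101509: atattttgtaTCGGAGAagctttgagc
MYH9, minus strand, chr22:36282303-36282330: gccagagtttTCTATGAAtctatttttc
FERMT2, minus strand, chr14:52857667-52857694: gaagtaaagtTCTATGAAgtatgcattt

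The TPM4 word begins 147 bases after the stop codon in a 3' UTR of 1597 bases and is present in 6 of 6 annotated coding transcripts searched. The MYH9 word begins at base 348 of a 3' UTR of 1391 bases, and the FERMT2 word at base 693 of 1109, in 3 of the 4 FERMT2 transcripts searched. None of the 3 words was found in the 3' UTRs of TPM1, TPM2, TPM3, MYH10, ACTN1 and ACTN4, in which between 1 and 16 transcripts per gene were searched. The principal 3' UTRs of TPM1, TPM2 and TPM3 have only 114, 233 and 472 bases, which leaves less room for a word. Those of ACTN1, MYH10 and ACTN4 have 716, 1592 and 2151 bases. Among 10727 tested genes with a searched 3' UTR, CTATGAA or TCTATGA was present in 14.4% and TCGGAGA in 1.84%. Outside the 3' UTRs, TCGGAGA also occurs once in the coding sequences of MYH9 and ACTN1, the first of which was lower and the second close to level. A match says only that these letters are present, and no factor that might read them was measured.

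TPM4 codes for a tropomyosin that is expressed in many non-muscle cells and occurs on stress fibres. It lies on the plus strand of chromosome 19 (16067021 to 16103005 in GENCODE 29 on GRCh38). In A375 it had 52.2 FPKM (20621 counts) with siLINC01291 and 22.0 FPKM (8415 counts) with siNC. In SK-MEL-28 it had 61.9 FPKM (22547 counts) with siLINC01291 and 18.2 FPKM (6641 counts) with siNC. Both siLINC01291 libraries thus stood above both siNC libraries, and the levels under siNC were alike in the lines. From TMM-normalised counts, TPM4 was 2.30-fold higher with siLINC01291 in A375 (95% exact binomial interval 2.24 to 2.36, which covers counting error only, as do all intervals here) and 3.32-fold higher in SK-MEL-28 (3.23 to 3.41). Its log2 ratio of 1.20 in A375 was the 73rd highest of 13244 genes expressed there, and that of 1.73 in SK-MEL-28 the 22nd highest of 12336. Such values are averages over all cells of a culture, in which a change in some cells and a smaller change in all cells cannot be told apart.

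The other tropomyosins did not share this pattern. TPM1, whose products are muscle tropomyosin and several stress fibre forms, had 19.4 FPKM with siLINC01291 and 26.4 FPKM with siNC in A375, and 1.25 FPKM with siLINC01291 and 1.23 FPKM with siNC in SK-MEL-28. It was lower by a log2 ratio of -0.50 in A375 (70.9% of the siNC level, interval 68.9 to 72.9%), where it was the next most shifted of the 9 genes, and level in SK-MEL-28 at -0.01 (interval 87.5 to 112% of siNC). TPM2, the gene of beta-tropomyosin, had 65.1 FPKM with siLINC01291 and 61.5 FPKM with siNC in A375, and 6.33 FPKM with siLINC01291 and 5.18 FPKM with siNC in SK-MEL-28. Its log2 ratios were 0.03 in A375 and 0.25 in SK-MEL-28, where only 593 and 486 counts stand behind it. TPM3, whose short products are widespread in non-muscle cells, had 71.6 FPKM with siLINC01291 and 65.9 FPKM with siNC in A375, and 37.2 FPKM with siLINC01291 and 34.4 FPKM with siNC in SK-MEL-28, which are log2 ratios of 0.07 and 0.08. TPM3 has processed pseudogenes to which reads can be lost, so its level is uncertain.

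**Figure D1:**
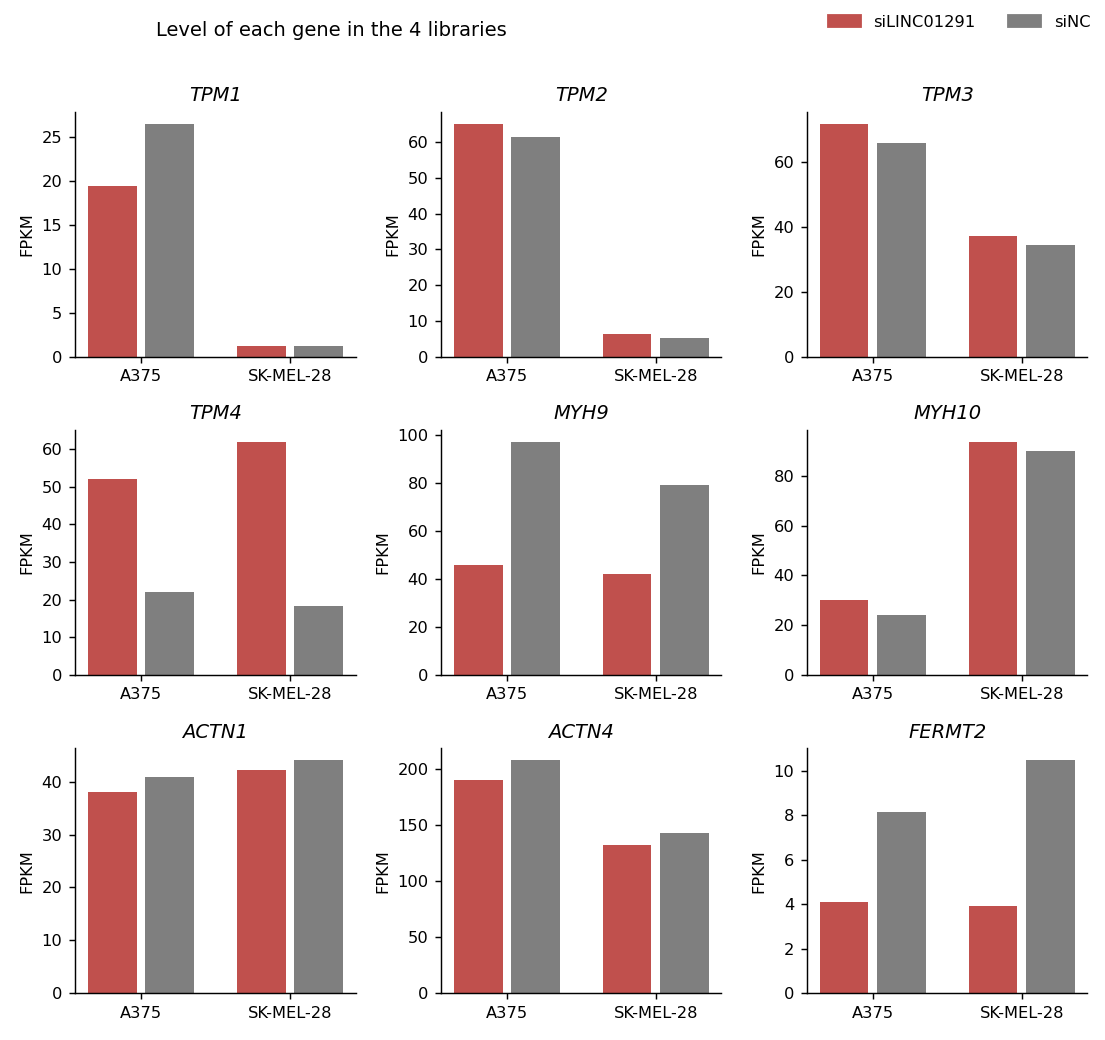
Deposited FPKM (vertical axes, each starting at 0) of the 9 genes in A375 and SK-MEL-28, with siLINC01291 in red left of siNC in grey; each bar is 1 library, so there are no error bars. TPM4 is higher with siLINC01291 in both lines (52.2 against 22.0 and 61.9 against 18.2 FPKM), MYH9 and FERMT2 are lower in both, and TPM1 and TPM2 are low in SK-MEL-28 under either siRNA.

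The pair of myosin heavy chains also parted. MYH9, the heavy chain of non-muscle myosin IIA and the main motor of stress fibre contraction, lies on the minus strand of chromosome 22 (36281277 to 36388067). In A375 it had 45.7 FPKM (13010 counts) with siLINC01291 and 97.1 FPKM (26802 counts) with siNC. In SK-MEL-28 it had 41.9 FPKM (10977 counts) with siLINC01291 and 79.4 FPKM (20846 counts) with siNC. Both siLINC01291 libraries lay below both siNC libraries, at 45.6% of the siNC level in A375 (interval 44.6 to 46.5%) and 51.5% in SK-MEL-28 (50.3 to 52.7%). The log2 ratios were -1.13 and -0.96. MYH10, the heavy chain of non-muscle myosin IIB, had 30.0 FPKM with siLINC01291 and 23.9 FPKM with siNC in A375, a log2 ratio of 0.28. In SK-MEL-28 it had 93.7 FPKM with siLINC01291 and 90.2 FPKM with siNC, a log2 ratio of 0.02. MYH9 and MYH10 code for proteins of similar length, and the table gives them nearly the same gene length (8.91 and 9.01 kilobases), so their FPKM can be set side by side.

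FERMT2, on the minus strand of chromosome 14 (52857268 to 52952435), had the lowest level of these 3 genes. In A375 it had 4.10 FPKM (1109 counts) with siLINC01291 and 8.18 FPKM (2143 counts) with siNC. In SK-MEL-28 it had 3.90 FPKM (972 counts) with siLINC01291 and 10.5 FPKM (2619 counts) with siNC. It stood at 48.6% of the siNC level in A375 (interval 45.1 to 52.3%) and 36.3% in SK-MEL-28 (33.7 to 39.1%), the lowest mean log2 ratio of the 9 genes. Of the other kindlins, FERMT1 was expressed in A375 alone, with 10.1 FPKM with siLINC01291 and 12.5 FPKM with siNC, and had 7 and 2 counts in SK-MEL-28. FERMT3, the kindlin of blood cells, stayed under 0.5 FPKM in the 4 libraries. By FPKM, which rests on 1 length per gene, FERMT2 was thus the leading kindlin transcript in SK-MEL-28 but below FERMT1 in A375.

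The alpha-actinins were close to level. ACTN1 had 38.0 FPKM with siLINC01291 and 40.9 FPKM with siNC in A375, and 42.1 FPKM with siLINC01291 and 44.1 FPKM with siNC in SK-MEL-28. Its log2 ratios were -0.15 and -0.10. ACTN4, the highest of the 9 genes in deposited FPKM, had 190 FPKM with siLINC01291 and 208 FPKM with siNC in A375. In SK-MEL-28 it had 132 FPKM with siLINC01291 and 143 FPKM with siNC, and its log2 ratios were -0.17 and -0.15. The rank of ACTN4 rests on 1 gene length per gene, 6.10 kilobases for ACTN4 and 15.2 for TPM3. Their principal transcripts have 4963 and 1523 bases, so the order per transcript length was not settled. Both genes were at 88.6 to 93.2% of their siNC level. Counting error alone is smaller than that, but the spread between cultures was not measured, so whether these shifts exceed it cannot be said.

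**Figure D2:**
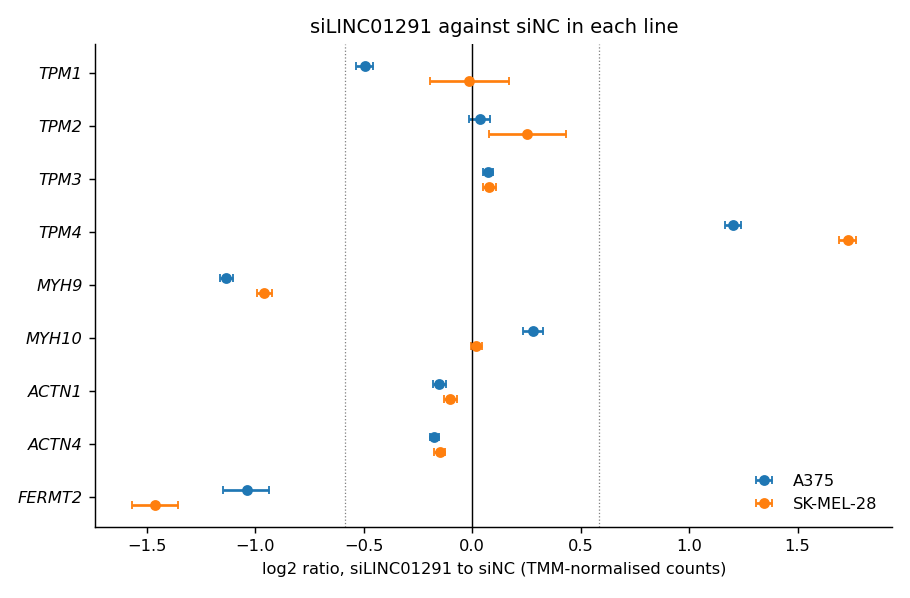
Log2 ratio of siLINC01291 to siNC (horizontal axis) for the 9 genes in A375 (blue) and SK-MEL-28 (orange); points are 1 pair of libraries each, bars are 95% exact binomial intervals of counting error, and dotted lines mark 1.5-fold. TPM4 lies beyond the line on the right and MYH9 and FERMT2 beyond it on the left in both lines, while the other 6 genes lie between the dotted lines.

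At a 1.5-fold limit, 1 of the 9 genes was higher and 2 were lower in A375, and the same 3 genes passed in the same directions in SK-MEL-28. Beside them, 3.95% of the 13244 genes expressed in A375 passed that limit upward with siLINC01291 and 3.94% downward. In SK-MEL-28, 6.32% of 12336 passed it upward and 5.08% downward. Nothing is read from the counts of the 9, since the list was made with these ratios known. The median log2 ratio of the 9 was -0.15 in A375 and -0.01 in SK-MEL-28, beside -0.01 and 0.00 over all expressed genes. The sign was the same in both lines for 9 of 9 genes. However, the SK-MEL-28 values of TPM1 and MYH10 are next to 0, and that of TPM1 turned to 0.02 when scaled by library totals. The share of genes at large with the same sign was not counted, so nothing is read from this count either. The difference between the lines in response could not be tested, since each line has 1 library per siRNA.

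Both the make-up and the sum of the tropomyosins and of the myosin pair differed between the siLINC01291 and siNC libraries. The FPKM of the 4 tropomyosins added up to 208 with siLINC01291 and 176 with siNC in A375, and to 107 with siLINC01291 and 59.0 with siNC in SK-MEL-28. TPM4 made up 25.1% of that sum with siLINC01291 and 12.5% with siNC in A375. In SK-MEL-28 it made up 58.0% with siLINC01291 and 30.9% with siNC. By deposited FPKM its share there passed that of TPM3 (34.9% with siLINC01291 and 58.3% with siNC). These shares rest on the single gene lengths behind the deposited FPKM, which are 12.4 kilobases for TPM4, 15.2 for TPM3, 13.8 for TPM1 and 3.18 for TPM2, longer than their principal transcripts (2539 bases for TPM4 and 1523 for TPM3). TPM3 has the longer gene length but the shorter principal transcript, so which of them leads per transcript length cannot be said from these shares.

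In the myosin pair, MYH9 made up 60.4% of the summed FPKM with siLINC01291 and 80.2% with siNC in A375, and 30.9% with siLINC01291 and 46.8% with siNC in SK-MEL-28. The ratio of MYH9 to MYH10 was 1.52 with siLINC01291 and 4.06 with siNC in A375, and 0.447 with siLINC01291 and 0.880 with siNC in SK-MEL-28. The sum of both chains was 75.7 FPKM with siLINC01291 and 121 FPKM with siNC in A375, and 136 FPKM with siLINC01291 and 170 FPKM with siNC in SK-MEL-28. In the alpha-actinin pair the share of ACTN4 differed by under 1 percentage point between siRNAs, at 83.4% with siLINC01291 and 83.6% with siNC in A375. Across families, TPM4 FPKM divided by MYH9 FPKM was 1.14 with siLINC01291 and 0.226 with siNC in A375. In SK-MEL-28 the same ratio was 1.48 with siLINC01291 and 0.229 with siNC. It sets a gene that was higher against a gene that was lower, so it only restates the levels given above.

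**Figure D3:**
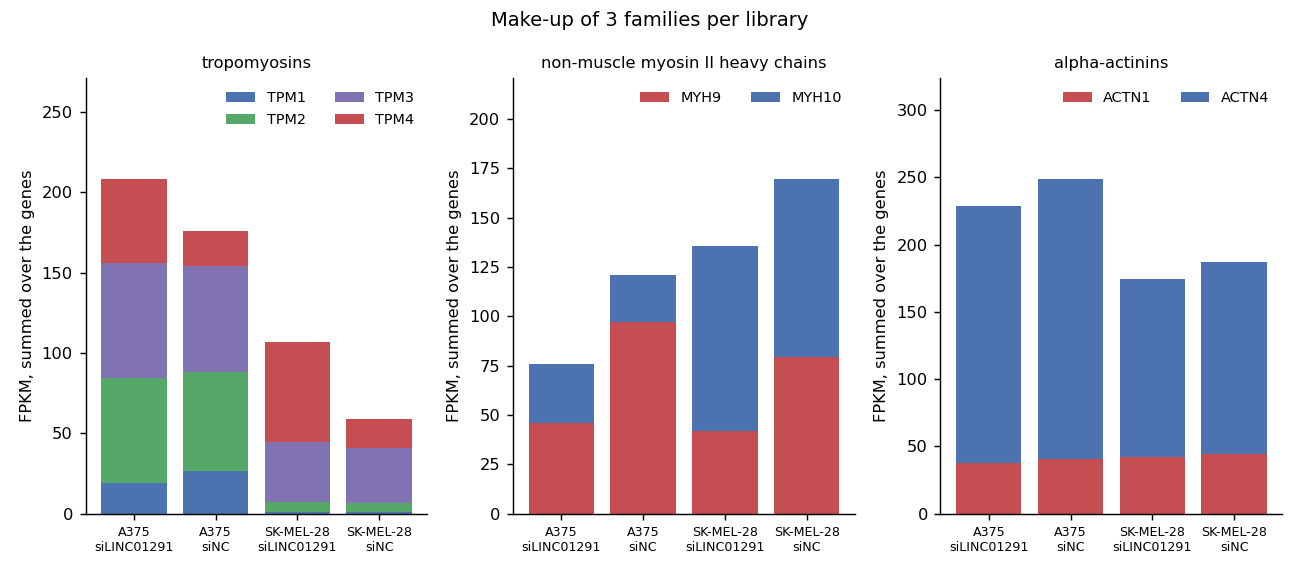
FPKM summed over the genes of a family (vertical axes) in each library, with siLINC01291 left of siNC within each line; colours are genes and each bar is 1 library. The TPM4 part of the tropomyosin bar is larger and the MYH9 part of the myosin bar smaller with siLINC01291 in both lines, while the alpha-actinin bars keep their make-up.

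The lines themselves were then compared, which asks how this set of genes differs between SK-MEL-28 and A375 whatever the siRNA. The comparison used edgeR's quasi-likelihood test on the 4 libraries with the siRNA as a second term, so each line had 2 libraries that differ in siRNA. The fit leaves 1 residual degree of freedom, so its SE and p-values do not measure the spread between cultures of a line. Of the 9 genes, all of which passed the expression filter, 2 were higher and 4 lower in SK-MEL-28. Of 13501 genes tested, 36.1% were higher and 36.3% lower in SK-MEL-28, so a share of this size is near that of genes at large. TPM1 was the most different, with 1.25 and 1.23 FPKM in SK-MEL-28 and 19.4 and 26.4 FPKM in A375, 16.2-fold lower in SK-MEL-28 (log2 difference -4.02, SE 0.14, edgeR adjusted p = 2.2e-06). TPM2 was 9.84-fold lower in SK-MEL-28 (-3.30, SE 0.11, edgeR adjusted p = 1.74e-06), and TPM3 1.71-fold lower (-0.78, SE 0.07, edgeR adjusted p = 9.88e-05). MYH10 was 3.85-fold higher in SK-MEL-28 (1.94, SE 0.09, edgeR adjusted p = 6.31e-06). Smaller differences that passed were those of ACTN1 (0.29, SE 0.07) and ACTN4 (-0.37, SE 0.07), with edgeR adjusted p of 0.00945 and 0.00271. For each of these 6 genes, both SK-MEL-28 libraries lay on 1 side of both A375 libraries in FPKM.

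TPM4, MYH9 and FERMT2 did not pass between the lines. TPM4 differed by 0.15 (SE 0.13, edgeR adjusted p = 0.311), MYH9 by -0.04 (SE 0.08, edgeR adjusted p = 0.632) and FERMT2 by 0.32 (SE 0.13, edgeR adjusted p = 0.0591). A miss of the threshold does not show equal levels. FERMT2 did pass when genes of low FPKM were kept in the fit (0.34, edgeR adjusted p = 0.0317). In the siNC libraries alone, where there is no test, the log2 difference of SK-MEL-28 to A375 was -0.08 for TPM4, -0.10 for MYH9 and 0.55 for FERMT2.

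**Figure D4:**
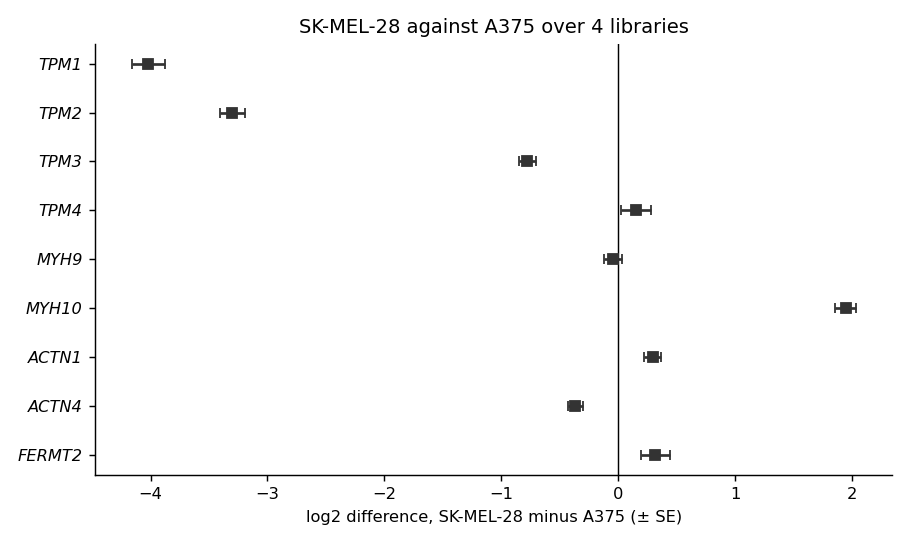
Log2 difference of SK-MEL-28 to A375 (horizontal axis) for the 9 genes over the 4 libraries, with the standard error of edgeR's fit as bars. The bars do not measure the spread between cultures of a line. TPM1 (-4.02) and TPM2 (-3.30) lie far to the left, MYH10 (1.94) to the right, while TPM4 (0.15), MYH9 (-0.04) and FERMT2 (0.32) did not pass the test.

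Other genes of the same machinery were examined as 5 lists chosen by hand from general knowledge, with earlier results of these data known. Over both lines, with the cell line as a block in edgeR's quasi-likelihood test, 0 of 111 tested pathway genes rose and 0 fell at an adjusted p under 0.05. Of all 13501 genes tested, 0.222% rose and 0.674% fell. At an unadjusted p under 0.05 there were 18 of the 111 (16.2%), beside 16.9% of all genes tested. DESeq2 called 1 of the 109 pathway genes to which it gave an adjusted p, the kinase CIT, as fallen (adjusted p = 0.0402), beside 0.98% of all 10098 such genes called upward and 2.01% downward. With limma on log2(FPKM + 1), 0 of the 111 were called, beside 0.00741% of all genes tested upward and 0.037% downward. The fit has 1 residual degree of freedom, and without the cell line as a block 0 genes of the whole table passed in either direction.

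The partners of myosin II, its light chains and the kinases and phosphatases that switch it, gave 26 tested genes, of which 0 passed, with a median log2 change of 0.03 beside 0.01 over all genes tested. The regulatory light chains MYL12A and MYL12B, which bind the MYH9 heavy chain, stood at -0.10 and -0.13, and the essential light chain MYL6 at -0.09; these were named after their values were seen. The lowest and the highest of the list were CIT, the citron kinase of cytokinesis (-0.47, SE 0.10, edgeR adjusted p = 0.0952), and SSH2, a slingshot phosphatase that activates cofilin (0.46, SE 0.10, edgeR adjusted p = 0.105). The regulatory light chain MYL9 (0.43, SE 0.14) and the kinase STK38 (0.40, SE 0.11) did not pass either, with edgeR adjusted p of 0.207 and 0.169. MYH14, the heavy chain of non-muscle myosin IIC, had 2.42 FPKM with siLINC01291 and 1.65 FPKM with siNC in A375, and 10.2 FPKM with siLINC01291 and 8.59 FPKM with siNC in SK-MEL-28 (0.36, SE 0.11, edgeR adjusted p = 0.187).

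Actin and the proteins that bind its filaments gave 48 tested genes with a median of -0.05. The cytoplasmic actins ACTB and ACTG1, named after their values were seen, stood at 0.12 and -0.05. Among the largest shifts were those of the calponin CNN3 (-0.34, SE 0.11), the barbed-end capping subunit CAPZA1 (-0.32, SE 0.10) and the elongation factor VASP (-0.32, SE 0.09), none of which passed, with edgeR adjusted p between 0.166 and 0.186. Focal adhesion proteins gave 32 tested genes with a median of -0.05. TES, a LIM protein of focal adhesions, was lowest (-0.49, SE 0.12, edgeR adjusted p = 0.126), and the scaffold TNS1 had the highest value (0.55, SE 0.19, edgeR adjusted p = 0.214, named after its value was seen). TNS1 had 25.9 FPKM with siLINC01291 and 13.5 FPKM with siNC in SK-MEL-28, a log2 ratio of 0.90, but 0.862 FPKM with siLINC01291 and 0.793 FPKM with siNC in A375, a log2 ratio of 0.07. LPP (0.48, SE 0.12), LIMS1 (-0.31, SE 0.10) and PDLIM1 (-0.26, SE 0.13), which like TES carry LIM domains, did not pass, with edgeR adjusted p between 0.132 and 0.374. TLN1 and ITGB1, the talin and the integrin subunit that work with kindlin-2 (both named after their values were seen), stood at -0.04 and -0.03. The transcription factor SRF, which drives many actin cytoskeleton genes, and its cofactors MRTFA and MRTFB stood at -0.05, 0.17 and 0.18, with edgeR adjusted p between 0.441 and 0.859.

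**Figure D5:**
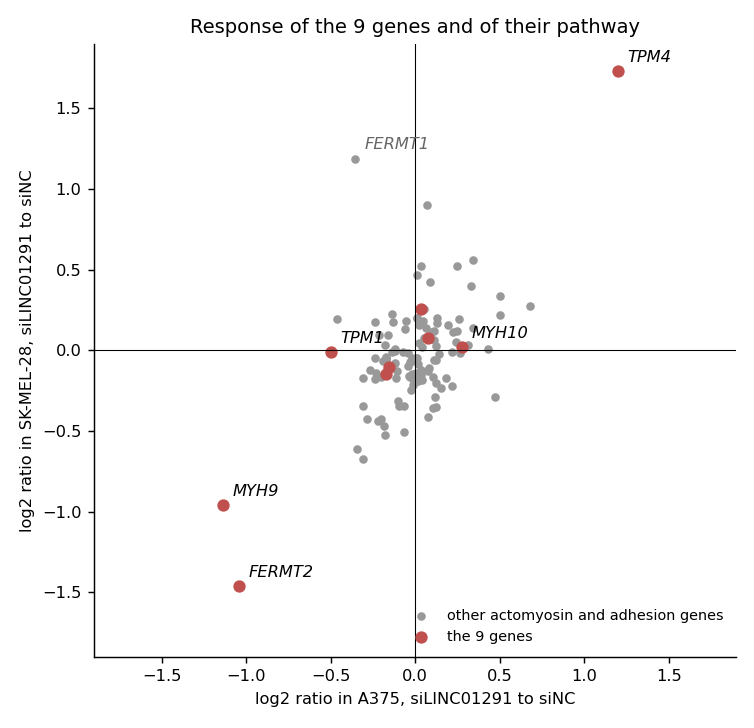
Log2 ratio of siLINC01291 to siNC in SK-MEL-28 (vertical axis) against that in A375 (horizontal axis) for the 9 genes (red) and the 111 tested genes of the 5 pathway lists (grey); each point is 1 gene from 1 pair of libraries per line. TPM4 stands apart at the upper right and MYH9 and FERMT2 at the lower left; the grey point of FERMT1 rests on 7 and 2 counts in SK-MEL-28.

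The genes whose levels over the 4 libraries were most like those of TPM4 and FERMT2 were looked up among 6087 others with an FPKM of at least 5 in either library of each line. Likeness was the root mean square distance of centred log2 normalised CPM (counts scaled to library size) over the 4 libraries, in log2 units. For TPM4 the nearest were SPCS2P4 (0.21), the endosomal syntaxin STX12 (0.26), the galactosyltransferase B4GALT1 (0.28), the glucosidase subunit GANAB (0.28) and the receptor GPR3 (0.33). For FERMT2 they were the Argonaute gene AGO2 (0.11), RPL5P34 (0.12), the protein kinase A subunit PRKACB (0.13), the disulfide isomerase PDIA6 (0.14) and SMIM13 (0.14). SPCS2P4 and RPL5P34 carry pseudogene names, and their counts are uncertain since reads of the parent gene may fall there.

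Promoter sequences of the 9 genes were also read, from 250 bases before to 50 bases after each annotated start (RefSeq, GRCh38.p14, 17 starts in all, 9 of 9 genes matched). The CArG box, the sequence that SRF binds, was searched on both strands, being a palindrome, and found in 2 of these genes, at 1 of 3 starts of TPM4 and 1 of 4 starts of ACTN1. Counted by start, 2 of the 17 held it, beside 1.29% of the 35116 promoters of this length. The core GGAATG of the TEAD site was found on either strand in MYH9, MYH10 and ACTN1. Counted by start, 3 of the 17 held it, beside 14% of all promoters. The stretches with the CArG box (capitals) are shown because SRF is the factor most often tied to this gene class.
TPM4, plus strand, chr19:16067355-16067384: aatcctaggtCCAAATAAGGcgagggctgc
ACTN1, minus strand, chr14:68977718-68977747: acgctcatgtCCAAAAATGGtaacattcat

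Of the genes with a CArG box, TPM4 was higher with siLINC01291 and ACTN1 close to level, and of those with GGAATG, MYH9 was lower and MYH10 and ACTN1 were close to level. Which start of TPM4 or ACTN1 was in use cannot be read from counts per gene.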

How the data were processed

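Polyadenylated RNA of 4 libraries was sequenced. Per the labels' protocols, fastp cleaned the reads and removed duplicates, HISAT2 aligned them, StringTie assembled new transcripts and HTSeq did the counting. Build hg19 is listed in the submitters' processing notes, as are DESeq2 and edgeR, with no role stated. The deposited counts are whole reads per gene, not normalised. The deposited FPKM are the deposited CPM (counts scaled to library size by the authors) over 1 length per gene. The deposited TPM were not used. Whether counting used strand is not stated.

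The 9 genes, the pathway lists and the words were chosen with earlier results of these data known. Log2 ratios in each line used TMM factors and a prior count of 2 (edgeR 4.0.16, R 4.3.3). Genes at 1 FPKM or more in either library of a line were taken as expressed there. The quasi-likelihood test of edgeR, with p-values adjusted by Benjamini and Hochberg's method, covered 13501 genes that reached 1 FPKM in 2 or more libraries, with terms for cell line and siRNA. The pairing of libraries comes from the cell line. DESeq2 1.42.0 and limma 3.58.1 (pseudocount 1) were alternatives. The code was tested on simulated data.

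Genes were named by a rule: the 9 genes, LINC01291, in each list the called genes and up to 4 more with the largest mean ratio among those expressed in both lines, and the 5 nearest genes of TPM4 and of the gene with the lowest ratio. Others are marked. Some genes that the rule names are not reported here. Levels between genes are given per length. Words were searched in 1 principal coding transcript per gene (GENCODE 29) with a 3' UTR of at least 50 bases. Depth was 29351240 to 31815336 counts, so counting error of the 9 genes is small and the missing replicates set the precision. Intervals are at the 95% level.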

Additional observations from a re-analysis of the deposited data

Results flagged for a closer look

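Of the pathway genes named above that passed the expression filter, 5 had log2 ratios of siLINC01291 to siNC with opposite signs in the lines. For none of them was the difference between the lines tested, and nothing is read from their number. ACTA2, which stayed under 1 FPKM and did not pass the filter, had opposite signs too (0.53 for A375, -0.82 for SK-MEL-28). SRF was at -0.21 in A375, against 0.10 in SK-MEL-28. ITGB1 had 0.15 in A375, against -0.24 in SK-MEL-28. TLN1 had 0.033 in A375, against -0.12 in SK-MEL-28. ACTG1 had -0.12 in A375, against 0.0056 in SK-MEL-28. FERMT1 had -0.36 in A375, against 1.19 in SK-MEL-28, where it had 7 counts with siLINC01291 and 2 with siNC.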

How the results depend on the processing

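The counts of the 9 genes at 1.5-fold kept their value in each line with DESeq2 size factors, library totals, a prior count of 0.5 and an FPKM minimum of 5. At 2-fold, 1 gene in place of 2 was lower in SK-MEL-28, since MYH9 stood at 1.94-fold. With library totals alone, 12 of the 18 log2 ratios within a line moved beyond their counting interval, by at most 0.05, and the ratio of TPM1 in SK-MEL-28 turned to 0.02. The pathway lists gave 0 calls in either direction without the cell line as replicate block and with limma or DESeq2 size factors, while 1 gene, CIT of the myosin regulators, fell in DESeq2 and in edgeR without the FPKM filter (1 of all pathway genes in each). Between the lines, the 2 higher and 4 lower genes stayed at 2 and 4 in DESeq2, without the siRNA term and with DESeq2 size factors; without the filter FERMT2 passed as well (0.34, edgeR adjusted p = 0.0317), which made 3 higher. As shares of CPM with no length, TPM4 made up 29.3% with siLINC01291 and 14.8% with siNC in A375, and 56.0% with siLINC01291 and 28.9% with siNC in SK-MEL-28. ACTN4 made up 68.1% with siLINC01291 and 68.4% with siNC in A375, and 57.2% with siLINC01291 and 58.0% with siNC in SK-MEL-28. No library could be left out, as each group holds 1.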

Other observations

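Words of the 3' UTR were also read in the pathway genes outside the 9. Since the words came from a ranking of the log2 ratios of all genes in these libraries, pathway genes included, a lower median among genes with CTATGAA or TCTATGA was fixed by that choice and is no evidence of its own. Of 109 tested pathway genes with a searched 3' UTR, 15 (13.8%) held CTATGAA or TCTATGA, close to the 14.4% of all genes. Their median log2 ratio of siLINC01291 to siNC was -0.07 in A375 and -0.17 in SK-MEL-28, beside 0.01 and -0.04 in the 94 pathway genes with neither word. Lower in both lines were 9 of the 15, among them TES, VASP and CAPZA1. Higher in both were 2, LPP and MRTFB, and LPP also holds TCGGAGA. Of the 94 genes with neither word, 31 were lower and 30 higher in both lines. Over all tested genes, the 1548 with either word had a median of -0.09 in A375 and one of -0.18 in SK-MEL-28, beside 0.0043 and 0.0088 in the 9019 with none of the 3 words. None of the 5 genes named here passed the test over both lines.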
